A study of Macaca fascicularis with 6 samples.

Results

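Complement genes were followed across the lung cells of cynomolgus monkeys with and without experimentally induced asthma. They were the 3 chains of C1q (C1QA, C1QB and C1QC), the central component C3, the terminal component C7, the alternative pathway genes CFD (factor D) and CFP (properdin), and the anaphylatoxin receptor genes C3AR1 and C5AR1, and they were found by their symbol in the gene list of each library. Of these 9 symbols 7 had a row among the 28623 genes listed, each with 1 Ensembl identifier, and C3AR1 and C5AR1 were not analysed here. Droplet-based single-cell RNA sequencing had been run on lung tissue of 6 male monkeys aged 3 to 5 years, with 1 library per monkey. The asthma group (replicates 8, 10 and 11) had been sensitized by injection of Ascaris suum antigen at 1 mg/mL in adjuvant and challenged through the nose with 10 mg/mL of antigen, and the control group (replicates 1, 2 and 3) had been given saline at the same steps. Lungs were collected in week 11. The model is a nematode antigen response in animals that had shown little or no skin reaction to the antigen beforehand, and each library comes from 1 animal.

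Complement is a cascade of plasma and tissue proteins that marks particles for uptake and can perforate membranes. C1q starts the classical pathway when it binds antibody or dying cells, properdin and factor D drive the alternative pathway, and both routes cleave C3, whose fragments coat the target and attract leukocytes. The late components, C7 among them, assemble into the membrane attack complex. Much of the circulating protein is made by the liver, but C1q is known as a product of macrophages, and airway epithelium and fibroblasts are known to make C3.

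Counts are of unique molecular identifiers (UMIs), tags that let the PCR copies of 1 captured RNA molecule be counted once. The libraries held between 29014556 and 41489879 UMIs, and 24235 of 35133 barcodes passed quality control, of which control replicates 1, 2 and 3 gave 4339, 3200 and 3902 cells and asthma replicates 8, 10 and 11 gave 4136, 4620 and 4038. Median depth lay between 3835 and 5048.5 UMIs per cell. Cells were grouped into 11 classes and 17 subtypes by marker genes, with the complement genes kept out of the clustering, and names are written X-like because they were rebuilt here. The 3016 cells (12.4%) without a clear name were left out of the levels. A level is given as UMIs of the gene per 1000000 UMIs (CPM) of that class in a library, and a library entered with at least 10 cells of the class. A total of 137 barcode sequences occurred in more than 1 library. Some libraries stood apart in their macrophage-like cells. Asthma replicate 10 had 8 alveolar macrophage-like cells against 132 to 363 in the other libraries, and held 95.2% of a sub-cluster led by interferon-stimulated genes. Another unnamed macrophage-like sub-cluster came to 94.4% from control replicate 1. Asthma replicate 11 stood apart in monocyte-like cells, with 789 of them, or 19.5% of its cells against 2.1% to 9.69% in the other libraries, and it gave 95.5% and 98.2% of a pair of classical and 97.8% of a nonclassical monocyte-like sub-cluster.

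The 7 genes divided among the classes in distinct ways. Macrophage-like cells held 72.1% of the C1QA, 79.1% of the C1QB and 77.5% of the C1QC UMIs found in kept cells. Mesothelial-like cells held 58.9% of the C3 UMIs, stromal-like cells 19.0% and epithelial-like cells 10.7%, pooled over the libraries. By library these shares ran from 20.04% to 71.3%, from 5.52% to 52.9% and from 2.82% to 37.5%, and in asthma replicate 11 the stromal-like share was the largest. C7 was almost wholly stromal, with 88.6% of its UMIs in stromal-like cells. CFD was spread over macrophage-like (37.4%), monocyte-like (24.3%), stromal-like (18.5%) and granulocyte-like (4.04%) cells in the pool. By library the first 3 of these shares ran from 18.2% to 63.8%, from 10.2% to 56.5% and from 6.86% to 50.4%, so that their order was not fixed. For CFP the pooled shares were 51.1% in monocyte-like, 12.4% in macrophage-like and 8.87% in dendritic-like cells, and by library they ran from 24.8% to 80.3%, from 2.97% to 26.7% and from 1.84% to 29.4%. Unnamed or mixed cells held from 8.53% of the C7 to 23.7% of the C1QA UMIs. These shares follow both the number of cells in a class and the RNA of each cell.

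**Figure D1:**
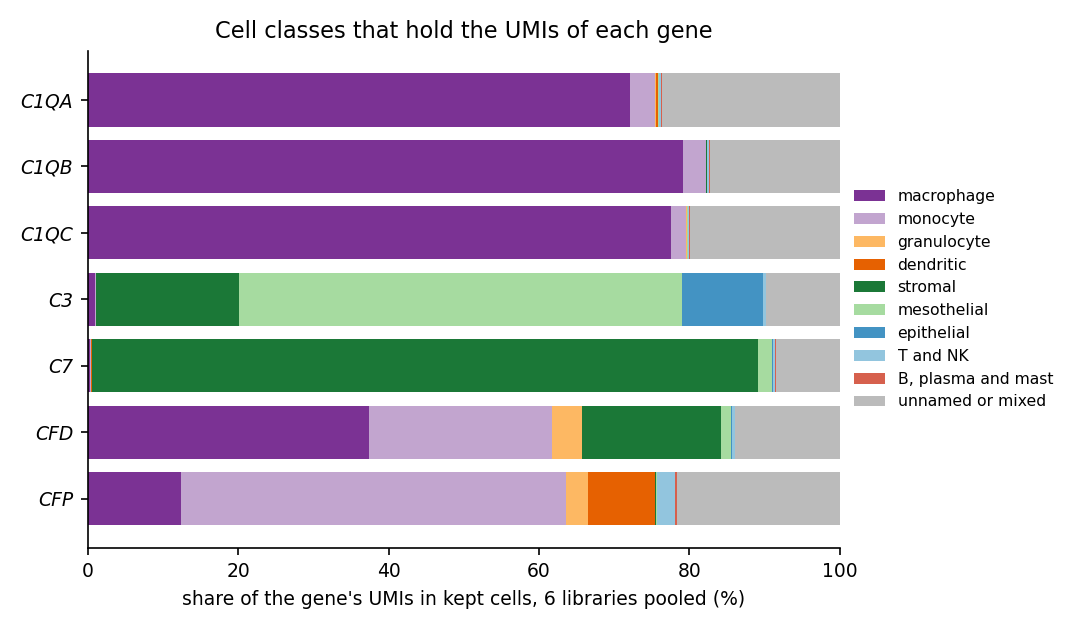
Share of each gene's UMIs in kept cells (horizontal axis, percent, 6 libraries pooled) held by each cell class (colours). C1QA, C1QB and C1QC lie mostly in macrophage-like cells, C3 in mesothelial-like, stromal-like and epithelial-like cells, C7 in stromal-like cells, CFD in several myeloid classes and stromal-like cells, and CFP across several myeloid classes.

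All C1q chains were highest in interstitial macrophage-like cells, tissue macrophages marked by genes such as FOLR2. C1QA, which encodes the A chain, stood there at 3461, 3148 and 3472 CPM in control replicates 1, 2 and 3 and at 3425, 3405 and 4481 CPM in asthma replicates 8, 10 and 11. The mean was 3565 ± 464 CPM (SD, n = 6 libraries). The level was 361 ± 177 CPM (n = 5) in alveolar macrophage-like cells and 346 ± 154 CPM (n = 6) in nonclassical monocyte-like cells, and these last did not differ beyond their spread. Within a library, C1QA was between 5.56 and 18.6 times higher in interstitial than in alveolar macrophage-like cells, in the 5 libraries with enough of both. Classical monocyte-like cells had 16.6 ± 22.9 CPM, close to the 10.0 CPM of granulocyte-like cells.

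C1QB and C1QC encode the B and C chains, and the first 3 cell types came in the same order as for C1QA. C1QB reached 4310 ± 502 CPM in interstitial macrophage-like cells (n = 6), 974 ± 643 CPM in alveolar macrophage-like cells (n = 5) and 904 ± 476 CPM in nonclassical monocyte-like cells (n = 6). C1QC reached 3268 ± 267, 610 ± 354 and 429 ± 241 CPM in the same cells. The ratio of interstitial to alveolar levels ran from 2.78 to 10.3 for C1QB and from 2.95 to 11.6 for C1QC over the 5 libraries. Across 14 classes and subtypes the log2(CPM + 1) of C1QB and C1QC had a Pearson correlation of 0.99, that of C1QA and C1QC 0.98 and that of C1QA and C1QB 0.97. These are descriptions over cell types that come from the same libraries.

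The chains were also found in the same cells. Of 783 interstitial macrophage-like cells, 99.9% had a UMI of at least 1 chain, and 99.5% of those had all 3. In alveolar macrophage-like cells 94.5% had a UMI of any chain and 63.1% of those had all 3. Only 29.0% of 448 nonclassical monocyte-like cells had any chain, and 61.5% of those had all 3, so that the level of the subtype came from a part of its cells. T and NK-like cells, which should lack C1q, showed a UMI of any chain in 6.1% of cells and all chains in 1.0% of these. Median depth was 11425 UMIs in interstitial and 24987 UMIs in alveolar macrophage-like cells, 8190.5 UMIs in nonclassical monocyte-like cells and 3660 UMIs in T and NK-like cells. After thinning every cell to 2000 UMIs, C1QA was seen in 97.8% of interstitial and 38.7% of alveolar macrophage-like cells, in 14.0% of nonclassical and 1.80% of classical monocyte-like cells and in 0.97% of T and NK-like cells. Without thinning these shares were 99.5%, 78.0%, 19.6%, 3.22% and 1.78%. Thinning left out 28 interstitial and 11 alveolar macrophage-like, 4 nonclassical and 4 classical monocyte-like and 887 T and NK-like cells that were shallower.

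Interstitial macrophage-like cells were not uniform. A sub-cluster of 120 cells, of which control replicate 1 and asthma replicate 11 each gave 31.7%, had 6190 CPM of C1QA, a sub-cluster of 66 cells had 6677 CPM, 75.8% of its cells being from asthma replicate 11, and the main sub-cluster of 597 cells had 3137 CPM. Outside the named subtypes, the interferon-led sub-cluster of 273 cells had 1139 CPM of C1QA and a sub-cluster of 66 cells had 1490 CPM. The macrophage-like sub-cluster from control replicate 1 had 389 CPM. These values are pooled over libraries. By library, with at least 10 cells, the main sub-cluster ran from 2552 to 3274 CPM of C1QA in all 6 libraries and the sub-cluster of 120 cells from 5793 to 7850 CPM in 4 libraries.

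C1q was low in dendritic-like cells, with 320 UMIs over the 3 chains, and 217 of these came from control replicate 3. In that library 85.7% of the C1q UMIs were of C1QA, 12.4% of C1QB and 1.84% of C1QC. Of the other 4 libraries with enough cells, control replicate 1 had 35.6% of C1QA and 57.6% of C1QB in 59 UMIs, and the rest had from 25% to 70.0% of C1QA in 8 to 22 UMIs. In interstitial macrophage-like cells the shares were 31.0% for C1QA, 39.4% for C1QB and 29.6% for C1QC, so that the excess of C1QA among dendritic-like cells rested mainly on 1 library. In 3' libraries a molecule is counted once whatever its length, so that these shares compare molecules. In type 1 conventional dendritic-like cells of control replicate 3, 108 cells had 94.5 CPM of C1QA. Asthma replicate 8 had 33.4 CPM in 14 cells and control replicate 2 had 6.61 CPM in 14 cells, and the other libraries had too few of these cells.

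Asthma and control were compared on UMIs summed per library and class with edgeR's quasi-likelihood test, and a gene was called where p, adjusted by Benjamini-Hochberg, lay under 0.05 and the log2 fold change passed 0.25 in either direction. Over 19 classes and subtypes the 7 genes gave 133 tests, of which 66 passed the filter on low counts, 11 had an unadjusted p under 0.05 and 1 was called. Over all genes in these comparisons 183 of 117714 tests were called, or 0.155%, and 6.92% had an unadjusted p under 0.05. DESeq2 called 5 of the members' tests, against 0.582% of all tests, and edgeR without the filter called 9, against 0.785%. In whole libraries none of the 7 genes was called, against 0.0839% of all genes by edgeR, 1 of them, C3, had an unadjusted p under 0.05 (12.9% of all genes), and DESeq2 called C3 there (4.81% of all genes). A whole-library sum mixes the number of cells of a type with the RNA of each cell, whereas the levels within a class do not depend on the number of its cells.

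In interstitial macrophage-like cells the C1q chains differed little between the groups. The values of C1QA overlapped between groups, with asthma replicate 11 highest and the other libraries between 3148 and 3472 CPM. In that library 21.4% of these cells were in the main sub-cluster, against 73.9% to 90.4% in the others. Within the main sub-cluster asthma replicate 11 was lowest, at 2552 CPM against 2938 to 3274 CPM. Asthma against control gave a log2 fold change of 0.10 ± 0.17 (SE, n = 3 and 3, edgeR adjusted p = 0.975). C1QB was at 4537, 3972 and 3469 CPM in control, against 4860, 4557 and 4467 CPM in asthma, a log2 fold change of 0.15 ± 0.18 (edgeR adjusted p = 0.957). C1QC was at 3265, 2826 and 3091 CPM in the control libraries and 3510, 3432 and 3482 CPM in the asthma libraries, a log2 fold change of 0.13 ± 0.16 (edgeR adjusted p = 0.957). The groups of C1QC did not overlap, as was so with asthma higher for 7.45% of all genes tested in these cells. Of all genes 0.0150% were called here, and none of the C1q chains was.

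Over all macrophage-like cells the asthma libraries were higher in C1QA but did not pass the test. C1QA was at 708, 724 and 699 CPM in control replicates 1, 2 and 3 and at 912, 2064 and 985 CPM in asthma replicates 8, 10 and 11. The groups did not overlap, which was so with asthma higher for 1124 of 10204 genes (11%), and the control libraries were close together while asthma replicate 10 was far above the others. The log2 fold change was 0.80 ± 0.33 (edgeR adjusted p = 0.909), and without asthma replicate 10 it was 0.29 (edgeR adjusted p = 0.951). C1QB and C1QC both gave log2 fold changes of 0.67 (edgeR adjusted p = 0.909), with overlapping groups, and 0.23 and 0.17 without asthma replicate 10. edgeR called 0 of 10204 genes in these cells (0%), 551 had an unadjusted p under 0.05, and DESeq2 called 25. The makeup of the class also differed among the libraries. Interstitial macrophage-like cells were 19.8%, 24.5% and 29.7% of the macrophage-like cells in control and 14.5%, 49.8% and 40.7% in asthma, and alveolar macrophage-like cells 16.6%, 69.7% and 60.8% in control and 82.5%, 1.28% and 57.1% in asthma. What part this makeup had in the C1q levels of macrophage-like cells was not tested.

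**Figure D2:**
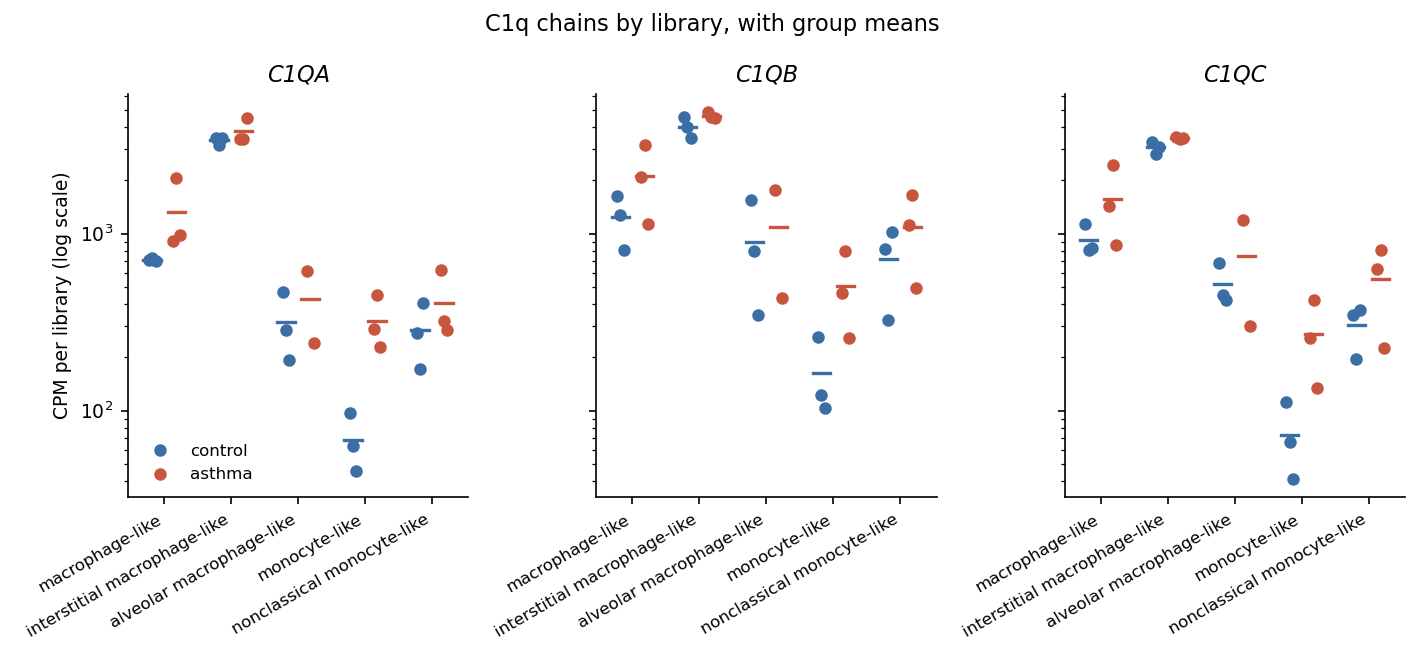
CPM of C1QA, C1QB and C1QC (vertical axes, log scale) in each library, as points for control (blue) and asthma (red), with the group means as bars. Interstitial macrophage-like cells are highest in every library, with the C1QC groups apart but no chain called, whereas the means of macrophage-like and monocyte-like cells are higher in asthma without passing the test.

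Monocyte-like cells showed the widest gap between the groups for C1q. C1QA was at 96.6, 63.3 and 45.7 CPM in control, against 288, 450 and 229 CPM in asthma, so that every asthma library was above every control library. The same was so for 9.34% of all genes in these cells. The log2 fold change was 2.16 ± 0.32 (edgeR adjusted p = 0.092), which did not pass the threshold, against 0.0268% of all genes called. DESeq2 and edgeR without the filter on low counts called it, and the latter also called C1QB (edgeR adjusted p = 4.67e-10) and C1QC (edgeR adjusted p = 4.91e-12) here. Without asthma replicate 11, which held most of the monocyte-like cells of its group, the log2 fold change was 2.39 (edgeR adjusted p = 0.0766). The fold change was smaller in other settings, on the log2 scale 0.81 at a clustering resolution of 1.6, 0.96 with mixed sub-clusters kept, 1.35 with complement genes in the clustering and 0.87 with the mitochondrial share taken from 13 coding genes. C1QB was at 162 ± 85.7 CPM in control, against 506 ± 274 CPM in asthma, with overlapping groups (log2 fold change 1.57 ± 0.44, edgeR adjusted p = 0.443). C1QC was at 73.3 ± 36.2 and 270 ± 144 CPM, and its groups did not overlap (1.80 ± 0.44, edgeR adjusted p = 0.379). Within nonclassical monocyte-like cells C1QA was at 275, 173 and 408 CPM in the control libraries and 620, 319 and 283 CPM in the asthma libraries, with a log2 fold change of 0.54 ± 0.34 (edgeR adjusted p = 0.872), and edgeR without the filter on low counts called C1QC there (log2 fold change 0.82, edgeR adjusted p = 0.0364). In classical monocyte-like cells C1QA stayed at or below 13.7 CPM in every library but asthma replicate 10, which had 62.6 CPM. Classical monocyte-like cells, which hold little C1q, were 58.7%, 50.3% and 67.8% of the monocyte-like cells in control and 21.0%, 41.2% and 40.9% in asthma. Nonclassical monocyte-like cells were 28.9%, 29.0% and 9.62% in control and 27.4%, 39.2% and 25.1% in asthma. The rest had no subtype. In 1 such sub-cluster, of 190 cells, C1QA was at 139, 123 and 14.1 CPM in control, against 216, 1330 and 633 CPM in asthma. Sub-clusters of 101 and 90 cells had 241 and 417 CPM pooled over libraries, 77.2% and 92.2% of their cells being from asthma replicate 11. Another sub-cluster without a subtype, of 116 cells, had only 30.6 CPM pooled over libraries. Control replicate 3 gave the most of its cells, 36.2%. The part of this makeup in the C1q levels was not tested.

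C1QA and C1QC were also looked at in mesothelial-like cells, because the study discusses them for a subtype of cells that it calls mesenchymal and marks with UPK3B and ITLN1, which are mesothelial markers here. That subtype was not separated here. C1QA had 2.4, 5.1 and 0 CPM in control, against 10.6, 11.1 and 0 CPM in asthma, and C1QC had between 0 and 12.6 CPM over the libraries. Neither passed the filter on low counts. These levels were like those of T and NK-like cells, at 6.40 CPM of C1QA and 5.14 CPM of C1QC.

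C3, the component on which all routes of complement meet, was highest outside the immune cells. Mesothelial-like cells, the lining of the pleura, had 4313, 5515 and 8971 CPM in control replicates 1, 2 and 3 and 5735, 5870.5 and 7545 CPM in asthma replicates 8, 10 and 11. The mean was 6325 ± 1658 CPM (n = 6). Fibroblast-like cells followed with 3004 ± 2086 CPM (n = 6), club-like cells, secretory cells of the airway, with 2555 ± 678 CPM (n = 4) and AT2-like cells, the surfactant-making cells of the alveolus, with 934 ± 209 CPM (n = 6). The fibroblast-like mean spans both groups, which differed as given below, and in control every fibroblast-like library, at 1804 CPM or less, was below every mesothelial-like and club-like library. The lowest mesothelial-like library, at 4313 CPM, was above the highest club-like library, at 3529 CPM, and AT2-like cells lay below club-like cells in every library with enough of both. Basal-like cells had 39.4 CPM and no immune class that was tested had more than 24.5 CPM. C3 was seen in 99.5% of mesothelial-like, 98.9% of club-like, 88.0% of AT2-like and 78.4% of fibroblast-like cells, at median depths of 9838.5, 12930, 10847 and 5364 UMIs, against 2.53% of T and NK-like cells at 3660 UMIs. Thinned to 2000 UMIs, the shares were 98.4%, 92.3%, 64.6% and 74.5%, against 1.38%.

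**Figure D3:**
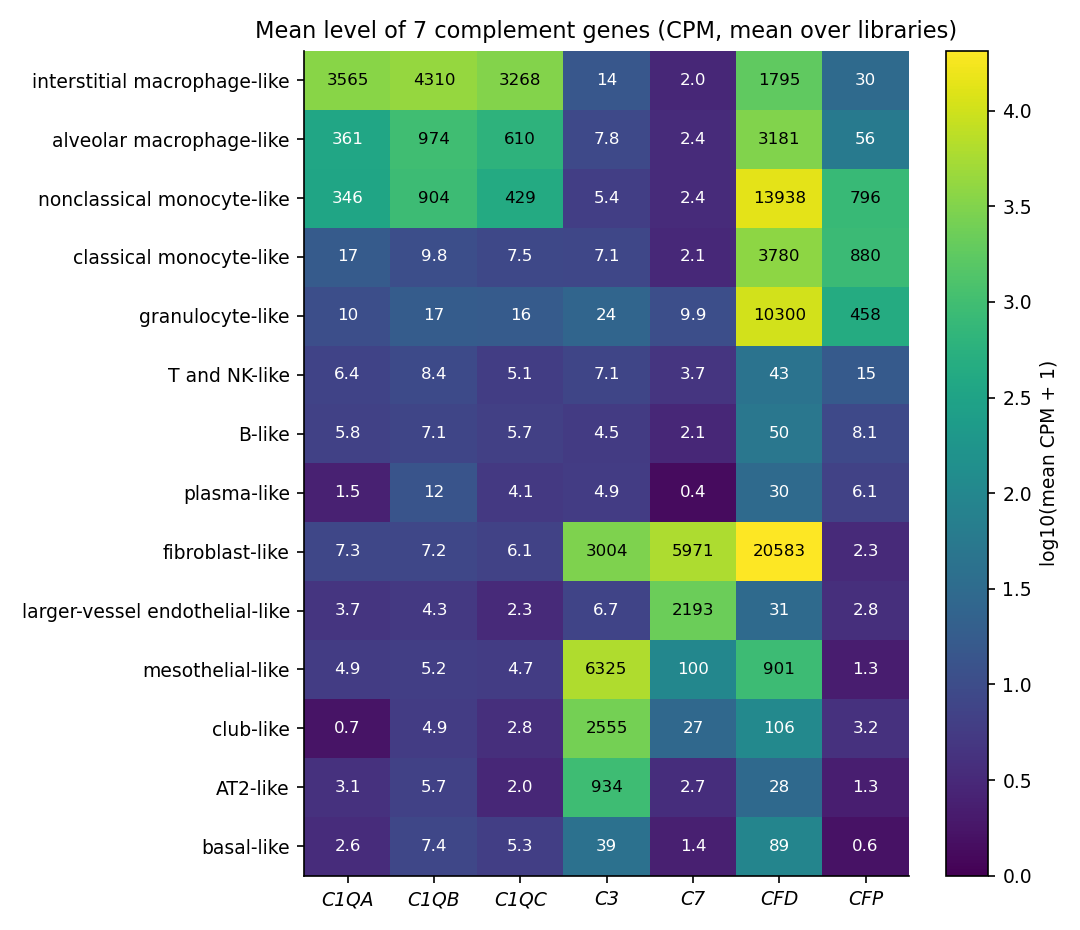
Mean CPM over libraries of the 7 complement genes (columns) in 14 classes and subtypes (rows), printed in each cell and coloured by log10(mean CPM + 1). The C1q chains peak in interstitial macrophage-like cells, C3 in mesothelial-like, C7 and CFD in fibroblast-like and CFP in classical monocyte-like cells.

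C3 rose in the fibroblast-like cells of the asthma group, and it was the 1 call among the complement genes followed here. Its level was 1003, 886 and 1804 CPM in control replicates 1, 2 and 3 (43, 80 and 165 cells) and 5330, 5483 and 3520 CPM in asthma replicates 8, 10 and 11 (69, 58 and 232 cells). The lowest asthma library was above the highest control library, as was so with asthma higher for 11.5% of the genes tested in these cells. The log2 fold change was 1.87 ± 0.34, or 3.66-fold (edgeR adjusted p = 0.0396), and 31 of 6199 genes were called in fibroblast-like cells, or 0.500%. C3 was seen in 61.5% of control and 91.9% of asthma fibroblast-like cells, at median depths of 5681.5 and 5151 UMIs, and after thinning in 55.3% and 91.3%, with 1.20% and 3.93% of T and NK-like cells as the background (thinned 0.73% and 2.08%). The fold change kept its direction in all 17 alternatives and the call in 10 of them. It was lost at a clustering resolution of 1.6 (log2 fold change 1.82, edgeR adjusted p = 0.0539) and when any of 4 libraries was left out, namely control replicate 1 (1.73), control replicate 2 (1.71), control replicate 3 (2.22) or asthma replicate 10 (1.76).

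The fibroblast-like cells fell into a pair of sub-clusters whose shares differed between the groups. A sub-cluster led by CCL11, the eosinophil chemokine eotaxin, made up 34.9%, 37.5% and 22.4% of the fibroblast-like cells in control and 66.7%, 69.0% and 99.6% in asthma. The other sub-cluster was led by MYOC and made up the rest, 65.1%, 62.5% and 77.6% in control and 33.3%, 31.0% and 0.431% in asthma. In every library with both, C3 was higher in the CCL11-led cells, which had 2624, 1388 and 4186 CPM in the control libraries and 7126, 5771 and 3523 CPM in the asthma libraries. In the MYOC-led cells C3 was at 337, 614 and 1201 CPM in control, against 2988 and 4940 CPM in asthma replicates 8 and 10, with 1 such cell in asthma replicate 11. Within the CCL11-led cells the groups overlapped, and the log2 fold change was 1.01 ± 0.37 (edgeR adjusted p = 0.941). Within the MYOC-led cells the groups did not overlap, as for 9.37% of the genes tested with asthma higher, and the log2 fold change was 2.48 ± 0.44 (n = 3 and 2, edgeR adjusted p = 0.112). So C3 was higher on average in asthma within each sub-cluster, without passing the test, and the share of the sub-cluster with more C3 was higher in asthma too. The part of each in the call was not tested. These sub-clusters were examined after the values of C3 had been seen.

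**Figure D4:**
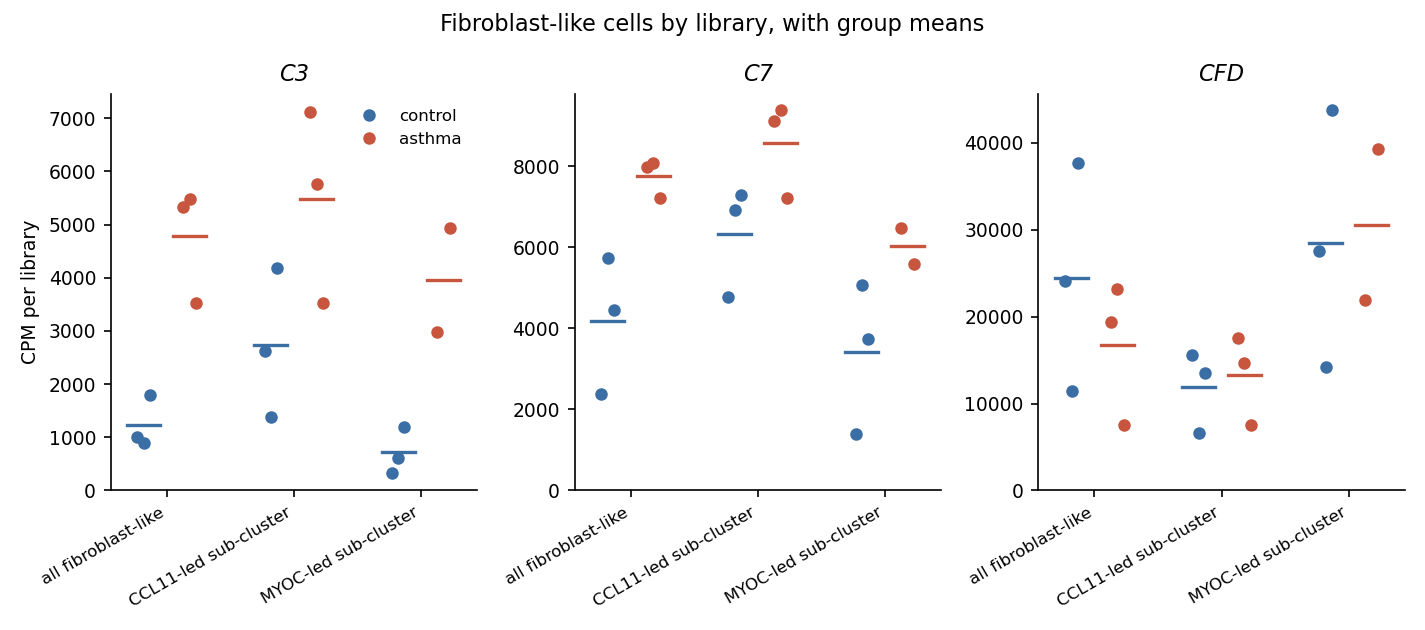
CPM of C3, C7 and CFD (vertical axes, linear) in all fibroblast-like cells and in the CCL11-led and MYOC-led sub-clusters, as points for each control (blue) and asthma (red) library with at least 10 cells, with group means as bars. All asthma points of C3 in fibroblast-like cells lie above the control points, C7 does likewise without passing the test, and CFD is higher in MYOC-led than in CCL11-led cells.

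Elsewhere edgeR with the filter on low counts did not call C3. Without that filter it called C3 in T and NK-like cells (log2 fold change 1.82, edgeR adjusted p = 0.0139) and in stromal-like cells (1.25, edgeR adjusted p = 0.0160). In mesothelial-like cells the groups overlapped and the log2 fold change was -0.05 ± 0.27 (edgeR adjusted p = 0.999), against 0.0370% of all genes called. In stromal-like cells as a whole C3 was at 355, 647 and 888 CPM in control, against 2280, 1597 and 1414 CPM in asthma, without overlap, and the log2 fold change was 1.24 ± 0.35 (edgeR adjusted p = 0.126). Among all genes tested in stromal-like cells 1.50% were called, and 26.4% had groups apart with asthma higher. DESeq2 called C3 there (adjusted p = 0.0190). Epithelial-like cells gave a log2 fold change of -0.34 ± 0.32 (edgeR adjusted p = 0.792) and club-like cells -0.51 ± 0.28 (n = 2 and 2, edgeR adjusted p = 0.977). In whole libraries C3 was at 135, 154 and 301 CPM in the control libraries and 780, 537 and 316 CPM in the asthma libraries, a log2 fold change of 1.35 ± 0.39 (edgeR adjusted p = 0.259), and no library of one group reached into the other, which was so with asthma higher for 15.9% of all genes. Mesothelial-like cells, which held 58.9% of the pooled C3 UMIs but 20.04% in asthma replicate 11, were 0.714%, 1.44% and 1.26% of cells in control and 6.41%, 4.31% and 0.743% in asthma.

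T and NK-like cells had low C3 that was higher in asthma. The level was 2.49, 2.62 and 4.02 CPM in control, against 12, 11.2 and 10.0 CPM in asthma, with a log2 fold change of 1.84 ± 0.25 (edgeR adjusted p = 0.167) and without overlap between the groups, as for 6.09% of all genes. edgeR called 0 of 10461 genes in these cells (0%), 722 had an unadjusted p under 0.05, and DESeq2 called 82, C3 among them. The median log2 fold change over the 7 complement genes was 0.96 in T and NK-like cells, against 0.004 over all genes tested. The whole-library level of C3, given above, moved in the same direction, and the part of free RNA in the low values was not tested. In macrophage-like cells C3 was at 8.62, 5.31 and 3.51 CPM in the control libraries and 9.73, 20.9 and 14.9 CPM in the asthma libraries (log2 fold change 1.24 ± 0.40, edgeR adjusted p = 0.909).

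C3 and C7 had also been discussed by the study for smooth muscle cells. The smooth muscle-like cells here are contractile cells, and part of the study's group has markers of the pericyte-like cells here, so the groups are unlike. Smooth muscle-like cells were few, with 5, 6 and 39 cells in control and 6, 2 and 13 cells in asthma, and they were not tested. C3 had 1 UMI in them, in asthma replicate 8, and C7 had 1 UMI in control replicate 1 and 1 UMI in asthma replicate 11. The 158 pericyte-like cells had 5 UMIs of C3 and 513 UMIs of C7, or 1440 CPM of C7 pooled over libraries.

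C7, a subunit of the membrane attack complex, was a gene of fibroblasts and of some endothelial cells. Fibroblast-like cells had 2385, 5730 and 4456 CPM in control, against 7972, 8070 and 7216 CPM in asthma. The mean over both groups was 5971 ± 2244 CPM (n = 6), and C7 was seen in 98.6% of these cells against 1.08% of T and NK-like cells, at the depths given above (thinned 96.5% and 0.55%). All asthma libraries were above all control libraries, as for 11.5% of the genes tested, but the log2 fold change of 0.77 ± 0.36 did not pass the test (edgeR adjusted p = 0.496), against 0.500% of genes called. Within CCL11-led cells it was 0.40 ± 0.31 (edgeR adjusted p = 0.980) and within MYOC-led cells 0.84 ± 0.45 (edgeR adjusted p = 0.936). In stromal-like cells as a whole C7 was at 1476, 4550 and 2311 CPM in the control libraries and 3969, 3421 and 3445 CPM in the asthma libraries (log2 fold change 0.11 ± 0.41, edgeR adjusted p = 0.924).

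Larger-vessel endothelial-like cells, the lining of veins and arteries, were second, with 2193 ± 1184 CPM of C7 (n = 6). This level came from a part of the cells. A sub-cluster led by ACKR1, a marker of venous endothelium, had 3913 CPM of C7, pooled over libraries, and a sub-cluster led by DKK2 had 35.6 CPM. C7 was at 1571, 2633 and 246 CPM in control, against 3483, 3172 and 2057 CPM in asthma in all larger-vessel endothelial-like cells. Control replicate 3 was far below the others, and ACKR1-led cells were 17.5% of its larger-vessel endothelial-like cells against 51.5% to 86.7% in the other libraries. The log2 fold change was 0.92 ± 0.61 (edgeR adjusted p = 0.763), against 0.0278% of all genes called, with a call by edgeR without the filter on low counts (edgeR adjusted p = 0.0345), and 0.40 without control replicate 3. In ACKR1-led cells alone C7 was at 2111, 3038 and 2694 CPM in the control libraries and 5967, 4579 and 2974 CPM in the asthma libraries, and the groups overlapped (log2 fold change 0.75 ± 0.31, edgeR adjusted p = 0.996). Pericyte-like cells had 1244 and 1477 CPM of C7 in asthma replicates 10 and 11, and the other libraries had 7 of these cells or fewer. Mesothelial-like cells had 100 ± 71.8 CPM of C7 (n = 6).

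CFD encodes factor D, the protease that activates factor B and is also known as adipsin. Its level was high in fibroblast-like cells, unlike that of CFP, and in several kinds of myeloid cells. Fibroblast-like cells had 24081, 11508 and 37700 CPM of CFD in control and 19414, 23218 and 7575 CPM in asthma, a mean of 20583 ± 10631 CPM (n = 6). Nonclassical monocyte-like cells had 13938 ± 3324 CPM and granulocyte-like cells 10300 ± 1846 CPM (n = 6 each), and neighbours in this order did not differ beyond their spread. Classical monocyte-like cells had 3780 ± 1025 CPM (n = 6), alveolar macrophage-like cells 3181 ± 737 CPM (n = 5), interstitial macrophage-like cells 1795 ± 209 CPM (n = 6) and mesothelial-like cells 901 CPM. Of the macrophage-like subtypes, the one with more C1q had less CFD. T and NK-like cells had 42.8 CPM and a UMI of CFD in 11.5% of cells, whereas 99.4% of granulocyte-like cells had one at a median depth of only 1007 UMIs. CFD in nonclassical monocyte-like cells was above that in classical monocyte-like cells in all 6 libraries.

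In CPM, the SD of CFD over libraries was largest in fibroblast-like cells. Relative to the mean it was larger in some cells with little CFD, such as club-like cells (106 ± 151 CPM, n = 4). MYOC-led cells had 27570, 14161 and 43834 CPM in control, against 21879 and 39343 CPM in asthma replicates 8 and 10. CCL11-led cells had 15582, 6623 and 13485 CPM in control, against 17524, 14644 and 7573 CPM in asthma, lower than the MYOC-led cells in all 5 libraries with both. The difference between the groups was -0.60 ± 0.52 in log2 over all fibroblast-like cells (edgeR adjusted p = 0.761) but 0.17 ± 0.39 within CCL11-led cells (edgeR adjusted p = 0.990) and 0.14 ± 0.43 within MYOC-led cells (edgeR adjusted p = 0.999). In stromal-like cells CFD was at 8581, 8375 and 18621 CPM in the control libraries and 6193, 6953 and 3704 CPM in the asthma libraries, without overlap, which was so with asthma lower for 4.07% of all genes. The log2 fold change was -1.31 ± 0.39 (edgeR adjusted p = 0.150), and DESeq2 called it (adjusted p = 0.0134). Fibroblast-like cells were 29.5%, 65.6% and 44.0% of the stromal-like cells in control and 20.1%, 18.8% and 26.1% in asthma, and capillary endothelial-like cells, with little CFD, 6.85%, 6.56% and 1.87% in control and 43.7%, 50.8% and 25.4% in asthma. In granulocyte-like cells CFD was at 9724, 9777 and 11321 CPM in control, against 7588, 13133 and 10253 CPM in asthma (log2 fold change 0.02 ± 0.26, edgeR adjusted p = 0.999). edgeR called 0 of 2875 genes there (0%), with 95 at an unadjusted p under 0.05 and 2 called by DESeq2. In club-like cells edgeR without the filter on low counts called CFD (log2 fold change -2.54, n = 2 and 2, edgeR adjusted p = 1.41e-06). With the filter edgeR called 0 of 3740 genes in these cells (0%), and DESeq2 called 0, so that the call of CFD depended on the filter.

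CFP encodes properdin, which stabilizes the C3 convertase of the alternative pathway. Classical monocyte-like cells had 850, 846 and 891 CPM in the control libraries and 1022, 711 and 959 CPM in the asthma libraries, a mean of 880 ± 107 CPM (n = 6). Nonclassical monocyte-like cells had 796 ± 117 CPM (n = 6), which did not differ from this beyond the spread. Granulocyte-like cells had 458 ± 173 CPM (n = 6) and dendritic-like cells 445 ± 42.8 CPM (n = 5). Both macrophage-like subtypes were far lower, with 55.8 ± 28.1 CPM in alveolar (n = 5) and 30.5 ± 15.5 CPM in interstitial cells (n = 6). As a subtype, nonclassical monocyte-like cells thus held both CFP and C1q, though only 29.0% of them had a UMI of any C1q chain. Cells with both were not counted. CFP was seen in 98.6% of classical monocyte-like and 94.7% of dendritic-like cells, against 4.93% of T and NK-like cells, and after thinning in 80.8%, 57.0% and 2.55%. Asthma and control overlapped in classical monocyte-like cells, with a log2 fold change of 0.04 ± 0.17 (edgeR adjusted p = 0.999), and in the monocyte-like class, with -0.04 ± 0.15 (edgeR adjusted p = 0.991).

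**Figure D5:**
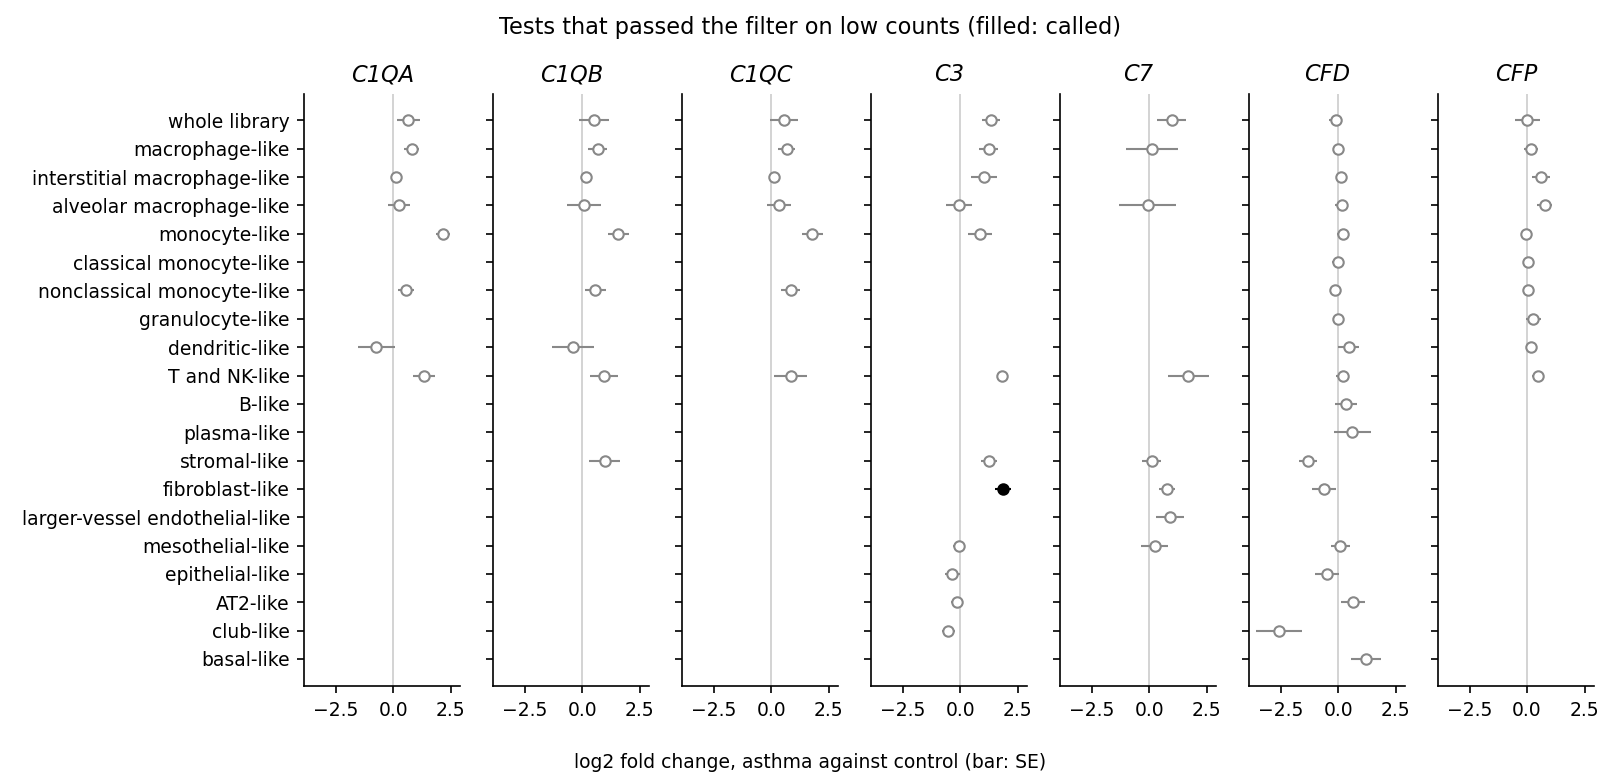
Log2 fold change of asthma against control (horizontal axes, bars are SE) for each of the 7 genes in whole libraries and in every class and subtype where the gene passed the filter on low counts. The filled point, C3 in fibroblast-like cells at 1.87, is the 1 call, and all others are open.

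Some genes outside the complement lists followed the members closely across 14 classes and subtypes, by Pearson correlation of mean log2(CPM + 1) over 11917 genes compared. Nearest to C1QA were LAIR2 (0.96), TRPM2 (0.96) and LILRA4 (0.95). Nearest to C1QB and C1QC were LAIR2 (0.98 for both), LILRA4 (0.95 for both) and MS4A7 (0.94 for both). Of these, LAIR2 and TRPM2 were low, with at most 3.41 and 4.24 CPM. C3 was followed by AOX1 (0.98), PDE1A (0.97) and NAP1L3 (0.95), and C7 by the matrix gene MGP (0.98), OMD (0.97) and TBX3 (0.96). NAP1L3 was low too, with at most 5.89 CPM, and PDE1A had at most 36.9 CPM. CFD had weaker partners, CLCN5 (0.90), ARAP1 (0.86) and ANXA5 (0.86), and CFP had C19orf38 (0.94), IL1B (0.93) and AOAH (0.93). C3 and C7 had a correlation of 0.49 and CFD and CFP one of 0.63, with cell types of the same libraries as the points.

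Of 44 further complement genes on a fixed list 31 had a row in the files. The lectin pathway gene FCN3, a ficolin that recognizes sugars, had 5602 ± 1216 CPM in larger-vessel endothelial-like cells, and COLEC11 had 152 ± 45.7 CPM in fibroblast-like cells. Among terminal components C5 was epithelial, with 844 ± 182 CPM in club-like and 711 ± 229 CPM in AT2-like cells, and C6 had 53.6 ± 75.1 CPM in the larger-vessel endothelial-like cells that also held C7. C8A had no UMI. Some soluble regulators were high in cells that held C3. SERPING1, the C1 inhibitor, had 2643 ± 302 CPM in fibroblast-like cells, and C4BPA had 233 ± 151 CPM in club-like cells (n = 4). CLU, clusterin, had 3634 ± 1008 CPM in larger-vessel endothelial-like and 3182 ± 783 CPM in basal-like cells. Among membrane regulators and receptors, VSIG4, a macrophage receptor for C3 fragments, had 168 ± 145 CPM in interstitial macrophage-like cells, ITGB2, the beta chain of the leukocyte integrins that bind such fragments, had 1758 ± 159 CPM in nonclassical monocyte-like cells, and CR2 had 23.8 ± 15.0 CPM in B-like cells.

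In asthma against control 157 tests of these further genes passed the filter and 1 was called, against 0.155% of all tests and 1.50% in the stromal-like cells where the call lay. In whole libraries edgeR called 0 of 24, against 0.0839% of all genes, 4 had an unadjusted p under 0.05 (12.9% of all genes), and DESeq2 called 3 (4.81% of all genes), COLEC10 and SUSD4 among them, which were named after their values had been seen. The call by edgeR was COLEC10, a collectin of the lectin pathway, in stromal-like cells. COLEC10 was at 0, 4.99 and 3.18 CPM in control, against 20.4, 55.0 and 64.6 CPM in asthma, a log2 fold change of 3.73 ± 0.64 (edgeR adjusted p = 0.0378). The call was lost with doublets removed, at a resolution of 1.6 and with mixed sub-clusters kept. It was also lost without any 1 of 4 libraries (edgeR adjusted p up to 0.200). The log2 fold change kept its direction in all 15 alternatives and lay between 3.34 and 4.14 without 1 library each. The makeup of the class differed between the groups. The capillary endothelial-like shares, given above, were higher in asthma. Pericyte-like cells were 0.685%, 0% and 0.267% of the class in control and 2.04%, 8.09% and 13.9% in asthma. Their part in the call was not tested. Soluble and membrane regulators gave 97 tests, whole libraries included, of which edgeR called 0, 18 had an unadjusted p under 0.05 (7.57% of all tests in the same comparisons) and DESeq2 called 4 (1.05%), among them SUSD4 in whole libraries and SERPING1 in T and NK-like cells. Soluble regulators had positive fold changes in 5 of 6 genes in whole libraries (median log2 0.90) and in 3 of 3 in T and NK-like cells (median 1.84), but in 0 of 4 in epithelial-like (median -0.31) and in 2 of 6 in mesothelial-like cells (median -0.24). Over all genes tested the medians were -0.02, 0.004, -0.007 and 0.005 in the same comparisons. The fold changes of soluble regulators were positive in 3 of 3 in macrophage-like cells (median 0.95, against 0.006 over all genes). They were positive in 0 of 3 in stromal-like cells (median -0.24, against 0.004). In alveolar macrophage-like cells soluble regulators were positive in 3 of 3 (median 0.59, against -2.2e-05). The 1 soluble regulator tested was positive in each of interstitial macrophage-like, monocyte-like and classical monocyte-like cells. Fibroblast-like, larger-vessel endothelial-like, AT2-like, basal-like and club-like cells had fold changes of both signs. In interstitial macrophage-like cells ITGB2 was at 106, 121 and 139 CPM in the control libraries and 250, 334 and 192 CPM in the asthma libraries (log2 fold change 1.05 ± 0.23, edgeR adjusted p = 0.508).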

How the data were processed

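Reads were aligned by the authors to macFas6 with Cell Ranger, and the deposited values are UMI counts, whole and not normalized. The file headers name Cell Ranger 4.0.0 and the submitters' processing notes 2.1.1. A barcode was kept when its genes numbered over 500 and under 5000, its UMIs 500 or more, and its mitochondrial share 25% or less. Counts scaled to 10000 per cell were clustered with 2000 variable genes, 10 principal components, 20 neighbours and the Leiden method (scanpy 1.11.5) at resolution 0.8, leaving out complement genes, and named from marker lists. A sub-cluster with markers of another class was left unnamed, by a threshold that earlier results of these data had set. Doublets were kept, and removing the highest Scrublet scores (0.8% per 1000 cells) was an alternative. UMIs were summed per library and class and tested with edgeR 4.0.16 (TMM, filterByExpr, Benjamini-Hochberg over all genes of a class), which was tested on simulated data. No batch is given, and p-values measure the spread between libraries, in which the monkey and the preparation of its library cannot be told apart. Intervals from counts cover counting error only. DESeq2 1.42.0, cell and count filters, resolution and each library left out were alternatives. All 7 members were named everywhere, with fold changes in the class and subtype of their highest level, wherever called, and where the study discusses them. The CCL11-led, MYOC-led and ACKR1-led sub-clusters were examined after seeing values. Members and lists were chosen with earlier results of these data known.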

Additional observations from a re-analysis of the deposited data

How the results depend on the processing

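Of 472 log2 fold changes under the alternatives, 433 kept their direction, and of 83 levels 75 moved by less than 1 SD between libraries. C3 in fibroblast-like cells lost its call at resolution 1.6 (1.82), in the CCL11-led cells alone (1.01) and in the MYOC-led cells alone (2.48), and ranged from 1.71 to 2.22 without 1 library each, with the call kept in 2 of 6. The cause was not tested. The number of calls among the 7 genes over classes and subtypes was 5 by DESeq2, against 0.582% of all tests. They were C3 in T and NK-like, fibroblast-like and stromal-like, C1QA in monocyte-like and CFD in stromal-like cells. There were 9 without the filter on low counts, against 0.785% of all tests, and 0 at resolution 1.6. Without 1 library each, C3 in fibroblast-like cells was called in 2 of 6 fits. Club-like cells had a lone library in a group when 1 of their 4 libraries was left out. CFD there had log2 fold changes of -1.75 without asthma replicate 10, -3.85 without asthma replicate 11 and -3.39 without control replicate 3. C7 there had 3.54 without asthma replicate 10. The lone library of a group was then assumed to vary like the others. In whole libraries DESeq2 called 1 gene, C3.

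Calls over all genes numbered 57 by DESeq2, 286 without the filter, 57 at a mitochondrial maximum of 10% and 2 to 69 without 1 library each in fibroblast-like cells. In stromal-like cells they numbered 373 by DESeq2, 581 without the filter, 80 with complement genes in the clustering, 54 with mixed sub-clusters kept and 0 to 300 without 1 library each. In whole libraries they numbered 647 by DESeq2, 45 without the filter, 7 with at least 200 genes per cell, 24 with the mitochondrial share of 13 coding genes and 0 to 11 without 1 library each.

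Levels moved for C1QA in macrophage-like cells (1560 CPM after thinning) and in interstitial macrophage-like cells (3020 at resolution 1.6, 4057 after thinning), for C1QB there (4816 with 13 mitochondrial genes), for C1QC there (2861 at resolution 1.6, 3559 with 13 mitochondrial genes), and for CFP in monocyte-like cells (673 and 729 in those settings). Every reversed log2 fold change was of a result that was not called. In interstitial macrophage-like cells they were C1QA (-0.11 at a mitochondrial maximum of 10%, -0.0070 with at least 200 genes, -0.031 at resolution 1.6, -0.12 with 13 mitochondrial genes), C1QB (-0.028 with 13) and C1QC (-0.015 at 10%, -0.042 with 13). Others were C3 in mesothelial-like cells (0.044 at 10%, 0.21 with mixed sub-clusters kept), C7 in stromal-like cells (-0.021 at 10%), CFD in granulocyte-like cells (-0.058 with at least 200 genes), CFP in monocyte-like cells (0.016 with doublets removed, 0.031 with 13) and in classical monocyte-like cells (-0.016 without the filter, -0.032 at 10%), and CFD in CCL11-led (0.17) and MYOC-led (0.14) cells.

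Without 1 library each, log2 fold changes crossed 0 for C1QA in interstitial macrophage-like cells (-0.0058 to 0.15), C3 in mesothelial-like cells (-0.25 to 0.23), C7 in stromal-like cells (-0.21 to 0.72), CFD in granulocyte-like (-0.21 to 0.23) and nonclassical monocyte-like cells (-0.44 to 0.12) and CFP in monocyte-like (-0.12 to 0.079) and classical monocyte-like cells (-0.087 to 0.15). In whole libraries they did for C1QA (-0.035 to 1.01), C1QB (-0.090 to 1.20), C1QC (-0.14 to 1.16), CFD (-0.45 to 0.084) and CFP (-0.87 to 0.39). No paired analysis was possible because the groups share no replicate numbers.

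The limits are 3 monkeys a group, 43 fibroblast-like cells in control replicate 1, and low levels of C3, CFD and CFP in classes such as T and NK-like cells, where the part of free RNA was not tested. The maximum of 5000 genes per cell removes deep cells, and macrophage-like cells are the deepest. The class names are rebuilt, and a fine split moves cells between them. In granulocyte-like cells 1548 of 1550 were too shallow to thin.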
